A study of Mus musculus with 8 samples.

Results

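The germ cell Tudor domain genes Tdrd1, Tdrd5, Tdrd6, Tdrd7, Tdrd9, Tdrd12, Tdrkh, Stk31 and Rnf17 were followed through the chromatin accessibility of mouse spermatogonia after retinoic acid (RA). Peaks were taken by name, when the gene list of a peak in the deposited ATAC-seq table held 1 of these 9 symbols exactly. This gave 166 of the 328733 peaks. Overlapping peaks of the libraries (1 bp or more) were joined, which gave 40 of the 87144 accessible regions. No region was assigned to more than 1 of the 9 genes, but 17 of the 40 were also assigned to a gene outside the group.

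ATAC-seq uses a transposase that inserts sequencing adapters into open chromatin, so that tags pile up at accessible DNA. The germ cells were sorted by eGFP from neonatal testes of PIWIL2-eGFP mice, in which the Piwil2 promoter drives the reporter from prenatal germ cells to early spermatids. All mice received WIN 18,446, which blocks the synthesis of RA, daily for 7 days, so the control was treated as well. The 0 h mice had no RA, and the others were taken 18, 48 or 120 h after 1 RA injection at 9 dpp, with 2 libraries per timepoint and the testes of 1 mouse per library. The stages assigned to these timepoints in the study run from undifferentiated spermatogonia at 0 h, through A1/A2 at 18 h and A3 at 48 h, to type B spermatogonia at 120 h. The labels give C57BL/6 crossed with 129s4/SvJae as the background, whereas the methods give C57BL/6 x SJL. Age rises with time after RA in this design, so age and time after RA cannot be told apart.

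Tudor domains are small folds that bind methylated arginine or lysine. In germ cells they dock onto the methylated arginines of PIWI proteins, which carry piRNAs, the small RNAs that guide the silencing of transposons. Most of the 9 proteins sit in perinuclear germ granules, such as the intermitochondrial cement of spermatogonia and spermatocytes or the chromatoid body of spermatids. There they scaffold the machinery that makes, trims and loads piRNAs.

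The DNA of 4 promoters and 3 intron regions is shown because the results turn on them. Tdrd1 had a start peak in both libraries only at 0 h, Tdrd9 had the start with the widest range of relative height, Stk31 held a rare palindrome and Tdrkh had the highest start. The promoters are the 250 bases before the start in the RefSeq table (GRCm38.p6), which held 7 of the 9 genes. It listed 3 promoters each for Tdrd1 and Tdrd7 and 2 each for Tdrd12 and Stk31. Of these, only the promoter nearest the deposited start of the gene was used. The starts used for Tdrd7 and Tdrkh were 126 and 74 bp from the deposited ones. Each promoter was identical to the mm10 genome sequence. The intron windows are 200 bases around the highest summit, read from the same build. Capitals mark matches, on either strand, to any of 6 short motifs. They include CACGTG (the only form of the E-box searched), GGGCGG (a GC box), GCGGGA (part of an E2F site) and AACGGC (the core of a MYB site). The others are AGGTCA (a half-site of nuclear receptors, the class to which RA receptors belong) and the NRF1 palindrome. GGGCGG and GCGGGA can share bases.
Tdrd1 promoter, chr19:56825959-56826208, plus strand: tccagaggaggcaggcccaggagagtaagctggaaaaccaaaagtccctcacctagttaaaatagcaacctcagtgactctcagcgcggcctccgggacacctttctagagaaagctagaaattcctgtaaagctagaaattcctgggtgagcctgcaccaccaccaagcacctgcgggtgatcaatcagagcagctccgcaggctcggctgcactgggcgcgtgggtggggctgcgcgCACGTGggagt
Tdrd9 promoter, chr12:111971309-111971558, plus strand: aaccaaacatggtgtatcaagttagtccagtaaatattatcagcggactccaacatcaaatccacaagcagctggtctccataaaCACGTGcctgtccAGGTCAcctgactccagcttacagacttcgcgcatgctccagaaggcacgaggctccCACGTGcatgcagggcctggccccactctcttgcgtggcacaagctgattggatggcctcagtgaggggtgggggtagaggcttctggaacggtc
Stk31 promoter, chr6:49395354-49395603, plus strand: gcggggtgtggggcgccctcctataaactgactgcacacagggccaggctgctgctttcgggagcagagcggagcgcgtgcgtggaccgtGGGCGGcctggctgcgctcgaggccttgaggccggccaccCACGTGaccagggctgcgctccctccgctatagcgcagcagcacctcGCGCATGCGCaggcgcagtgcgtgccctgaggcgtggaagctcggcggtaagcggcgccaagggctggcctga
Tdrkh promoter, chr3:94412994-94413243, plus strand: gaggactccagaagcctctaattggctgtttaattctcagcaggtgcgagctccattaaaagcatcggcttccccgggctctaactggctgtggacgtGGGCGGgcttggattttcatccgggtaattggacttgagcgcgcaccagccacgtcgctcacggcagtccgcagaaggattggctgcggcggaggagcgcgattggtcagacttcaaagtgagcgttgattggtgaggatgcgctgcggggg
Tdrd1 intron region, chr19:56852509-56852708, plus strand: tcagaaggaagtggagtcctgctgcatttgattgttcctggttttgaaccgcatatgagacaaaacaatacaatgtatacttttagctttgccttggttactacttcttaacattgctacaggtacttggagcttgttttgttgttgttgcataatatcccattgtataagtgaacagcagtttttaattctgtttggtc
Tdrd5 intron region, chr1:156285277-156285476, plus strand: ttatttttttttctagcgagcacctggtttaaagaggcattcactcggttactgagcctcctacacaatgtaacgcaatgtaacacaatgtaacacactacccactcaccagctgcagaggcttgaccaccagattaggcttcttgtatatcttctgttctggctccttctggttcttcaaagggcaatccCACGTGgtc
Tdrd12 intron region, chr7:35506909-35507108, plus strand: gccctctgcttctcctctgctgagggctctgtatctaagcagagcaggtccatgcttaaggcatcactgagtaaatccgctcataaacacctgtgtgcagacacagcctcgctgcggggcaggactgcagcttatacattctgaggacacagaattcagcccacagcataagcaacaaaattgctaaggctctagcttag

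The CACGTG form of the E-box was found in 3 of the 7 promoters, those of Tdrd1, Tdrd9 and Stk31, and Tdrd9 held 2 copies. It occurs in 7.15% of the 32851 promoters of the RefSeq table, counted over 250 bases before and 50 after the start. In the 200 bases around the summit of the start region it was found in Tdrd1, Tdrd9, Stk31 and Rnf17, against 7.32% of the 15536 regions called in every library. It was also found around the summits of the Tdrd5 intron region and of the region downstream of Tdrd1. The NRF1 palindrome was found only in the promoter of Stk31 among the 7, and in 0.971% of all promoters. AACGGC was found in the promoters of Tdrd5 and Tdrd12, against 5.04% of all promoters, and GGGCGG in those of Tdrd7, Tdrd12, Tdrkh and Stk31, against 35.7%. GCGGGA was found in the promoter of Tdrd5, against 19.98%, and AGGTCA in that of Tdrd9, against 16.3% of all promoters. The intron regions of Tdrd1 and Tdrd12 held none of the 6. These matches are a description of the letters and not of binding.

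The libraries differed in overall signal and in peaks at somatic markers. Each had 24643 to 72215 called peaks, with the most at 0 h, and no peak had a summit value below 24, so a region without a peak has a height that is low but unknown. Height here is the tag coverage at the summit, after the authors had reduced all libraries to the same number of tags. The number of reads behind a region was not analysed here, and no counting error can be given. The median log2 height of the regions called in all 8 libraries was 7.81 and 8.08 in the 0 h libraries and 6.43 to 7.38 in the later ones. All 7 germ cell markers (Ddx4, Dazl, Piwil2, Mael, Sall4, Tex101 and Sohlh1) had a start region with a peak in every library. Of 18 markers of Sertoli, Leydig, peritubular, endothelial and blood cells, 9 (Sox9, Amh, Wt1, Gata4, Lhcgr, Acta2, Myh11, Cnn1 and Cd68) had a peak at their start in both 0 h libraries. Of these 9, 3 (Sox9, Cnn1 and Cd68) had a peak in no later library, and 2 (Wt1 and Acta2) in all 6 later libraries. Among all 15845 genes with a start region, 63.9% had a peak there in all 8 libraries. The summed height of the somatic marker starts was 1127 and 1324 at 0 h and between 142 and 403 later, while that of the germ cell marker starts was 2891 and 3781 at 0 h and between 1086 and 2474 later. Starts without a peak were counted as 0 in these sums. The later somatic sums are therefore lower bounds, and the size of the somatic fall is not known. Rhox5, Cyp11a1, Star, Insl3, Pecam1, Cdh5 and Ptprc had assigned regions, but none with a peak within 1000 bp of the start in any library. Hsd3b1 and Hbb-b1, for which the table lists no region, were not analysed here. The starts of both marker lists thus stepped down from 0 to 18 h, as did the heights of most regions below. The part of somatic cells in those values was not tested.

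The 40 regions were mostly away from the starts. The summit lay in an intron of the gene in 19, in a coding exon in 3, in a UTR in 4 and outside the gene in 14 (GENCODE vM21). A CpG island overlapped 12 of the 40, compared with 18.1% of all regions. A peak was present in all 8 libraries in 13 of the 40 regions, compared with 17.8% of all regions. In 12 of the 40 a single library had a peak, and the share of all regions with this pattern was not computed. Both 0 h libraries and no later library had a peak in 6 of the 40, while 21.4% of all regions did. Tdrkh, which had 1 region, and Tdrd9, which had 10, were the ends of the range.

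**Figure D1:**
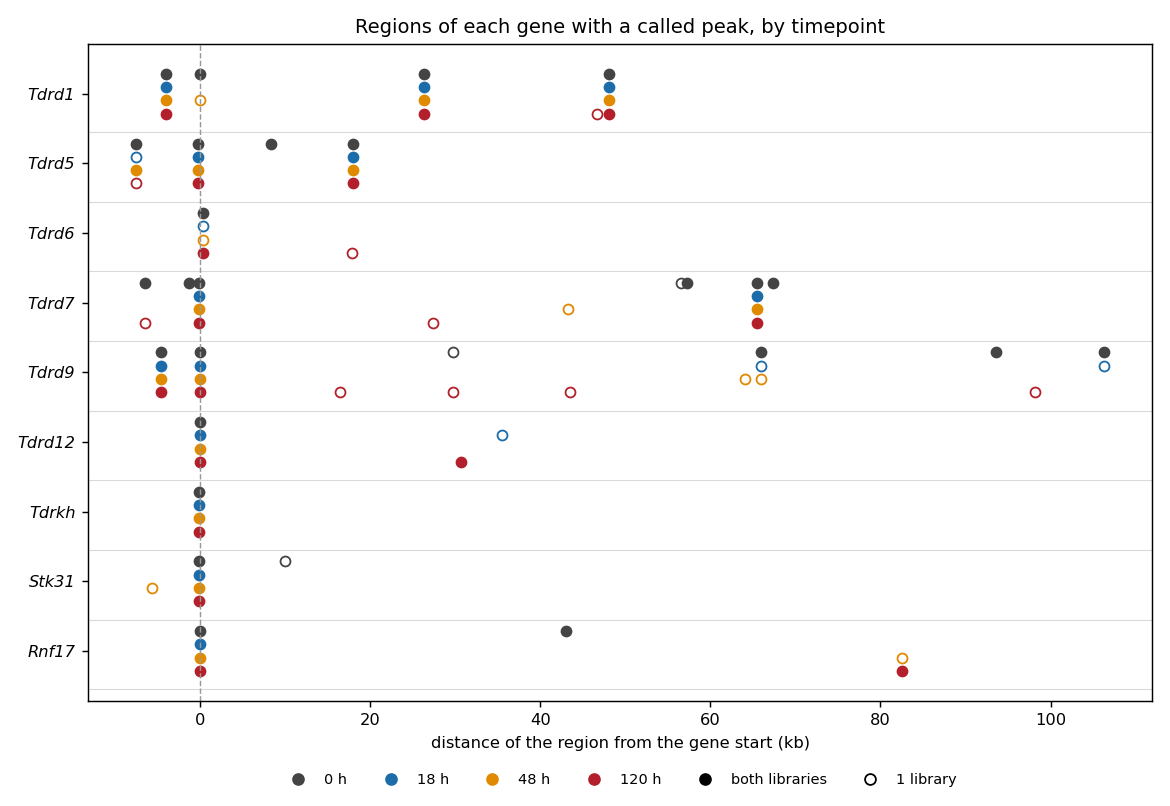
Accessible regions of each gene by distance from its start in kb (x axis), with 1 line of points per timepoint; filled points mark a peak in both libraries and open points a peak in 1 library. The start is marked at all 4 timepoints in both libraries for 7 genes, Tdrd1 keeps its start in both libraries only at 0 h, and only the Tdrd12 and Rnf17 lines hold a region with both libraries at 120 h alone.

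Each gene had 1 start region, which is the region with a peak within 1000 bp of the deposited start, and 8 of these 9 held a CpG island. The exception was Tdrd9. Among all gene starts 73.0% held one. A peak was called in all 8 libraries in 7 of the 9 start regions, against 63.9% of the 15845 genes with a start region. Tdrd1 and Tdrd6 were the others. For heights, values are given in the order replicate 1 and replicate 2 at each timepoint. In such bulk samples, fewer cells with an open start and less opening per cell cannot be told apart.

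The first set of genes acts in the making of piRNAs. TDRKH anchors PIWI proteins at the mitochondrial surface while piRNA ends are trimmed, and its start region (chr3:94412591-94413586) was the highest of the group. Its height was 740 and 760 before RA (0 h), 266 and 388 by 18 h, 256 and 283 by 48 h, then 658 and 473 by 120 h. Both 0 h libraries were above all later ones, and both 120 h libraries were above the 18 and 48 h ones. This region also lies 207 bp from the start of 1700040D17Rik, so the 2 starts cannot be told apart. TDRD12 takes part in the amplification of piRNAs with PIWIL2. Its start region (chr7:35537370-35538210) had heights of 441 and 695 before RA (0 h), 216 and 258 by 18 h, 145 and 202 by 48 h, then 364 and 229 by 120 h. The 0 h libraries stood above the rest, and the replicates lay far apart both at 0 h and at 120 h.

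TDRD1 is the PIWIL2 partner of the intermitochondrial cement. Its start region (chr19:56826053-56826601) had heights of 148 and 231 at 0 h, a height of 66 in 48 h replicate 1 and no peak in the other 5 libraries. TDRD9 is an RNA helicase that works with the nuclear PIWI protein PIWIL4. Its start region (chr12:111971287-111971968) had heights of 144 and 231 before RA (0 h), 60 and 77 by 18 h, 78 and 87 by 48 h, then 169 and 138 by 120 h. Tdrd1 and Tdrd9 therefore had nearly the same 0 h heights, but the Tdrd9 start had a peak in every library and its 120 h heights overlapped those of 0 h. Of the 6365 starts at least as high as that of Tdrd1 in both 0 h libraries, 97.4% had a peak in all 6 later libraries and 9 had a peak in at most 1. Of the 1186 starts within 0.8 to 1.25 times its 0 h heights, 81.3% had a peak in all 6 and 13 in at most 1. The Tdrd1 start is itself among the 6365 and the 1186, and among the 9 and the 13.

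The LOTUS and Tudor domain proteins TDRD5 and TDRD7 are needed for the assembly of the chromatoid body. The Tdrd5 start region (chr1:156302722-156303764) had heights of 140 and 156 before RA (0 h), 45 and 75 by 18 h, 72 and 65 by 48 h, then 84 and 65 by 120 h. It was the lowest in both 0 h libraries of the 7 starts with a peak in every library, and the highest later library, at 84, was below both. The Tdrd7 start region (chr4:45972007-45973039) had heights of 258 and 334 before RA (0 h), 104 and 151 by 18 h, 125 and 135 by 48 h, then 302 and 191 by 120 h. Here 120 h replicate 1 lay between the 0 h libraries, so the groups overlapped.

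The remaining genes are best known from later germ cells or other granules. TDRD6 builds the chromatoid body of spermatids, and its start region (chr17:43629077-43630927), with the summit in a coding exon, had heights of 96 and 91 at 0 h, 40 in 18 h replicate 2, 39 in 48 h replicate 2 and 49 and 42 at 120 h. All later heights were low, and 18 h replicate 1 and 48 h replicate 1 had no peak. STK31 joins a Tudor domain to a kinase domain. Its start region (chr6:49395247-49396042) had heights of 333 and 431 before RA (0 h), 107 and 162 by 18 h, 88 and 128 by 48 h, then 205 and 142 by 120 h, and all later libraries stayed below 0 h. RNF17, a RING finger protein with Tudor domains, forms its own granule. Its start region (chr14:56402359-56403083) had heights of 331 and 387 before RA (0 h), 141 and 217 by 18 h, 175 and 213 by 48 h, then 284 and 246 by 120 h. The 120 h libraries were above all 18 and 48 h libraries and below both 0 h libraries. In 5 of the 7 starts with a peak in every library, both 0 h heights exceeded all 6 later ones, compared with 63.3% of the 8823 such starts of all genes.

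**Figure D2:**
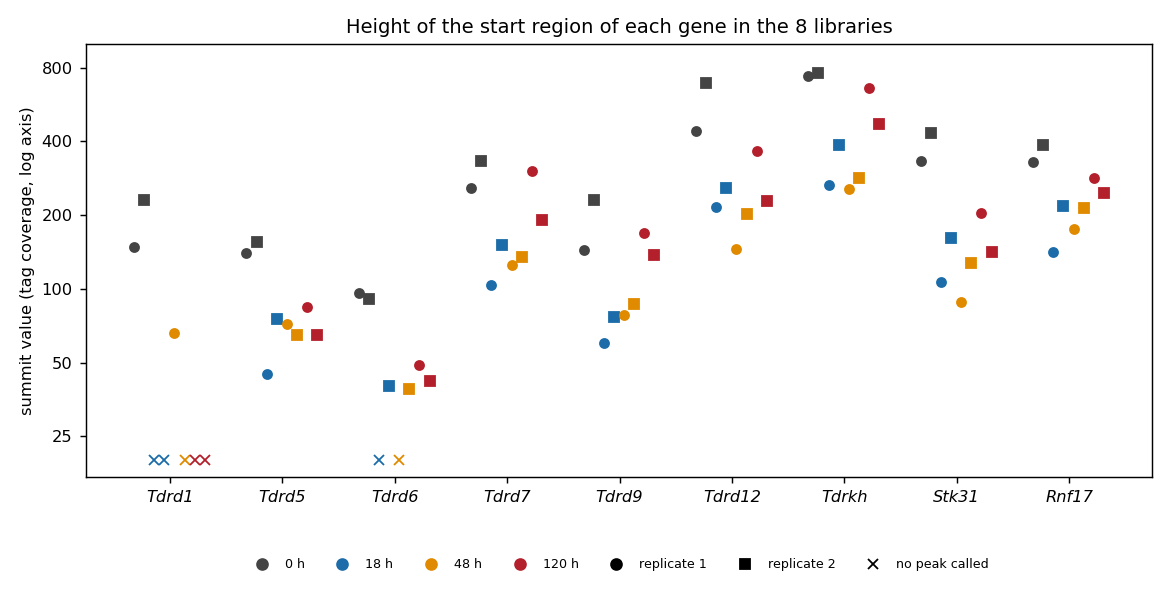
Summit value (tag coverage, log axis) of the start region of each gene in the 8 libraries; colours are timepoints, circles and squares are replicates 1 and 2, and crosses at the bottom mark libraries without a called peak. Tdrkh is highest in every library, and Tdrd1 has crosses in 5 of its 6 later libraries.

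Because heights fell in nearly all regions of the later libraries, the starts were also ranked within each library among the 8823 starts with a peak in all 8. These percentiles are given as means of 2 libraries and were not tested. Tdrkh stayed near the top, at 92.8 at 0 h and 91.6 at 120 h. Stk31 went from 66.0 to 45.2 and Tdrd12 from 83.4 to 68.9. Tdrd9 went from 22.4 to 40.0 and Tdrd7 from 50.5 to 60.8. The start of Rnf17 was highest at 48 h, at 79.4, and stood at 62.7 at 0 h and 65.2 at 120 h, and Tdrd5 remained between 9.88 and 18.9. The replicates of Tdrd9 at 0 h were at 16.0 and 28.8 and those of Stk31 at 48 h at 36.6 and 53.6, which shows the spread. Both 120 h libraries ranked above both 0 h libraries for Tdrd7 and Tdrd9, as for 34.8% of the 8823 starts, and below them for Tdrd12 and Stk31, as for 30.9%.

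**Figure D3:**
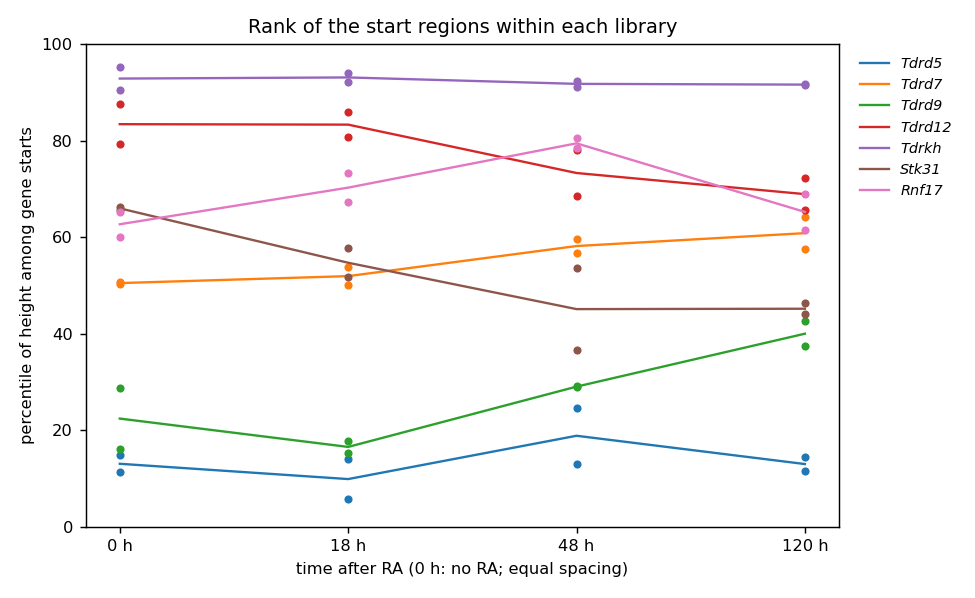
Percentile of the height of each start among the 8823 gene starts with a peak in all 8 libraries (y axis) at each timepoint (x axis, equally spaced); points are libraries and lines join the means of 2 libraries. Tdrkh lies above 90 throughout, Tdrd9 ends at 40.0 and Stk31 at 45.2.

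Changes of height were tested with limma on the log2 heights of 15536 regions, those called in all 8 libraries, 13 of which belonged to the group, with Benjamini-Hochberg adjustment over all 15536. A region that lost its peak, such as the Tdrd1 start, has no height there and was not tested. On unscaled heights all 13 were lower at 18 h than at 0 h and 0 higher, but so were 92.3% (lower) and 0.296% (higher) of all regions. The median log2 change of the 13 was -1.28, and that of all regions was -1.23. Without 18 h replicate 1, 8 of the 13 and 48.2% of all regions were called lower. This step is shared by whole libraries, so heights were also centred on each library's median. On that scale 0 of the 13 were called lower at 18 h (background 0.225%) and 0 higher (background 1.25%), with 2 lower and 0 higher at an unadjusted p under 0.05, against 4.99% and 8.30% of all regions. Between 18 and 48 h limma called 0 of the 13 on either scale, with 0 at an unadjusted p under 0.05. Of all regions, 0.00644% were called lower and 0.0% higher on unscaled heights, and 0.0% in both directions on centred heights.

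At 120 h some regions were called on centred heights as well. Against 48 h, limma called 3 of the 13 regions higher on unscaled heights (background 23.7%): the upstream region of Tdrd1 (log2 change 1.24, SE 0.37, adjusted p = 0.0133), the Tdrkh start (1.05, SE 0.37, adjusted p = 0.0287) and the intron region of Tdrd5 (0.96, SE 0.37, adjusted p = 0.0439). The fit called 0 lower (background 0.18%, 0 of 13 at an unadjusted p under 0.05). The count of 3 became 0 without 48 h replicate 1, 48 h replicate 2 or 120 h replicate 1, and 7 without 120 h replicate 2. In this order, the shares of all regions called higher were then 0.251%, 1.45%, 2.19% and 50.4%. On centred heights the upstream region of Tdrd1 was the only one of the 13 called higher (0.74, SE 0.19, limma adjusted p = 0.0284, background 9.47%), and 0 were called lower (background 7.45%). Without either 48 h library or either 120 h library, that call was lost. It was also lost after quantile normalization (0.31, limma adjusted p = 0.406).

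Against 0 h, limma called 6 of the 13 lower at 120 h on unscaled heights (background 44.8%) and 0 higher (background 0.882%). They were the Tdrd1 intron region (-2.49), the region downstream of Tdrd1 (-1.99), the region downstream of Tdrd7 (-1.15) and the starts of Stk31 (-1.15), Tdrd5 (-1.0) and Tdrd12 (-0.94). Each had an SE of 0.37, which the fit shared over all regions. The count of 6 became 3 without 0 h replicate 2 (23.9% of all regions) and 2 without 120 h replicate 2 (23.1%). On centred heights 2 were lower (background 15.8%) and 3 higher (background 23.0%). The 2 lower ones were the intron region (-1.60, SE 0.25, limma adjusted p = 0.00073) and the downstream region (-1.10, SE 0.20, limma adjusted p = 0.0016) of Tdrd1. The 3 higher ones were the upstream region of Tdrd1 (0.71, SE 0.19, limma adjusted p = 0.0127) and the starts of Tdrd9 (0.63, SE 0.22, limma adjusted p = 0.0337) and Tdrd7 (0.60, SE 0.20, limma adjusted p = 0.0275). On unscaled heights these 3 (Tdrd1 upstream, Tdrd9, Tdrd7) had log2 changes of -0.18, -0.26 and -0.29, so their direction depends on the scaling. After quantile normalization 0 of the 13 were higher (8.74% of all regions) and the 3 changes were 0.29, 0.60 and 0.39 in this order (limma adjusted p = 0.292, 0.0632 and 0.156), while the 2 lower calls of Tdrd1 were made there too (10.2% of all regions). Leaving out 1 library at a time, both lower calls were made each time on centred heights, while the higher calls fell to 1 without 0 h replicate 1 (Tdrd1 upstream), to 1 without 0 h replicate 2 (Tdrd9) and to 0 without 120 h replicate 2. Without 120 h replicate 1 there were 3, with the Rnf17 start (0.67, limma adjusted p = 0.0458) in place of the Tdrd7 start. The median centred log2 change of the 13 was 0.13, and that of all regions was 0.14.

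**Figure D4:**
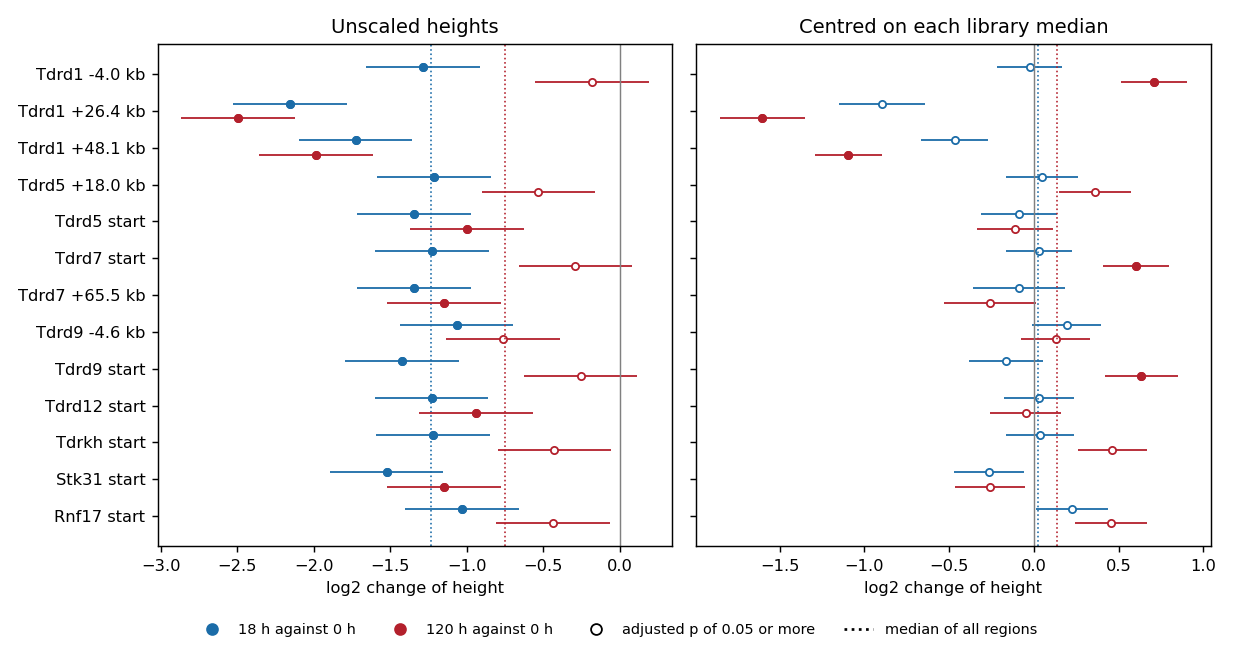
Log2 change of height (x axis) of the 13 regions called in every library, at 18 h (blue) and 120 h (red) against 0 h, with SE bars; the left panel shows unscaled heights and the right panel heights centred on each library median, filled points passed an adjusted p of 0.05 in limma and dotted lines give the median of all 15536 regions. At 120 h the Tdrd1 intron region is at -1.60 on centred heights and -2.49 unscaled, and the Tdrd1 upstream region at 0.71 centred and -0.18 unscaled.

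Of the genes with more than 1 tested region (Tdrd1 with 3, and Tdrd5, Tdrd7 and Tdrd9 with 2 each), only Tdrd1 had centred calls in both directions. Its higher call was not made after quantile normalization. The upstream region (-4001 bp, chr19:56821157-56822592) lies outside the gene over a CpG island. It is also assigned to A630007B06Rik, whose start lies 7533 bp away. Its heights were 448 and 477 before RA (0 h), 169 and 213 by 18 h, 165 and 180 by 48 h, then 503 and 331 by 120 h. Its 120 h heights lay on either side of those at 0 h. The intron region (26399 bp, chr19:56852328-56852857), which has 1 CpG and 37.0% GC in the 200 bases shown above, had heights of 403 and 364 before RA (0 h), 89 and 83 by 18 h, 61 and 72 by 48 h, then 105 and 44 by 120 h. All later libraries were far below 0 h, and its change at 18 h stood at the 0.425 percentile of the changes of all 15536 regions. The downstream region (48095 bp, chr19:56874052-56875194) lies 16 bp from the start of the neighbouring gene Vwa2, also over a CpG island. Its heights were 294 and 299 before RA (0 h), 75 and 107 by 18 h, 65 and 84 by 48 h, then 95 and 59 by 120 h, again with every later library below 0 h. The deposited table assigns it to both genes.

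**Figure D5:**
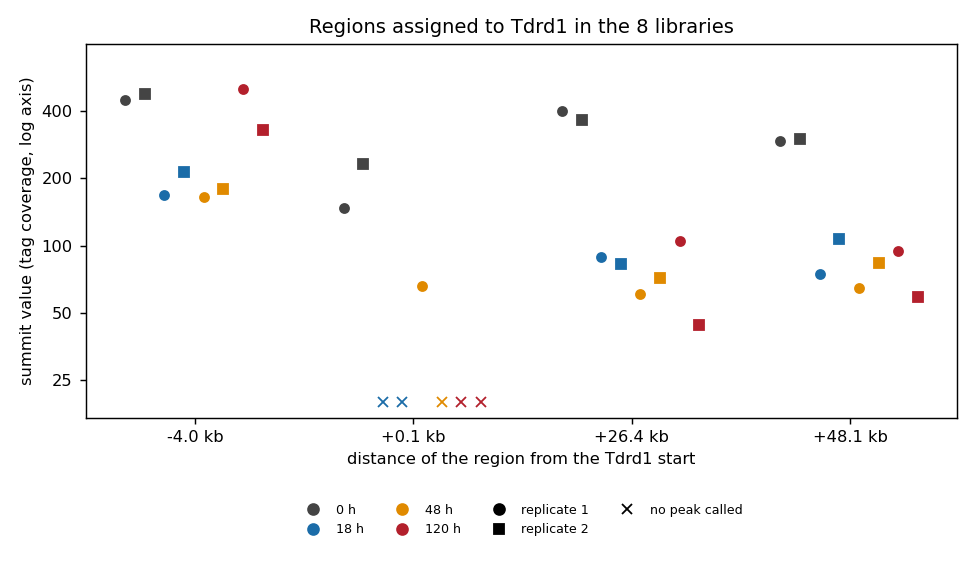
Summit value (tag coverage, log axis) in the 8 libraries of the 4 Tdrd1 regions with a peak in more than 1 library, placed by distance from the start; colours are timepoints, circles and squares are replicates and crosses mark no called peak. The upstream region returns to 503 and 331 at 120 h, while the intron region stays at 105 and 44.

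The Tdrd5 intron region (17972 bp, chr1:156284931-156285643) had heights of 336 and 372 before RA (0 h), 152 and 153 by 18 h, 103 and 153 by 48 h, then 315 and 190 by 120 h. It was higher than the Tdrd5 start in every library, and its 120 h libraries were above the 18 and 48 h ones. The region downstream of Tdrd7 (65465 bp, chr4:46037610-46038111), which is 1318 bp from the start of Tmod1, had heights of 172 and 157 before RA (0 h), 76 and 55 by 18 h, 57 and 92 by 48 h, then 90 and 61 by 120 h. Its 120 h heights overlapped those at 18 and 48 h. The region upstream of Tdrd9 (-4583 bp, chr12:111966558-111967300) lies 1 bp from the start of 2010107E04Rik, and its heights of 184 and 278 before RA (0 h), 98 and 119 by 18 h, 100 and 109 by 48 h, then 156 and 114 by 120 h showed 0 h above all later libraries. In all, 10 of the 13 regions had both 0 h heights above every later height, compared with 67.7% of all 15536. The others were the Tdrd1 upstream region and the starts of Tdrd7 and Tdrd9.

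Regions with both libraries at a single timepoint were mostly those of 0 h, with 10 of the 40, compared with 35.0% of all regions, and apart from the Tdrd1 start and a region of Tdrd7 their heights were at most 97. Within Tdrd7 the region at -1287 bp (chr4:45970995-45971330) had heights of 108 and 140 and that in a coding exon at 57273 bp had 45 and 37, with no later peak. The region at 67369 bp, 554 bp from the start of Tmod1, had 57 and 59 and no later peak. The region at -6471 bp of Tdrd7 (chr4:45965513-45966145) had 51 and 97 at 0 h and 35 in 120 h replicate 1. In GENCODE vM21 Tdrd7 starts at chr4:45965334, so the regions at -6471 and -1287 bp have their summits in an intron. Start regions were named from the deposited start alone. In Tdrd9 the region at 93625 bp (chr12:112064879-112065520) had 91 and 80 with no later peak, that at 65961 bp had 73 and 92 with 48 in 18 h replicate 2 and 51 in 48 h replicate 2, and that at 106297 bp had 60 and 81 with 57 in an 18 h library. The last 2 were an intron region of Tdrd5 at 8404 bp with 49 and 39, and 1 of Rnf17 at 42999 bp with 34 and 38, neither with a later peak. Of the 9 somatic marker starts called in both 0 h libraries, 3 had no later peak and 2 had one in all 6. Their part in these regions was not tested.

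Of the 40 regions, 2 had both libraries at 120 h alone, compared with 1.75% of all regions. The Tdrd12 intron region (chr7:35506862-35507229), whose sequence is given above, had heights of 58 and 34 at 120 h and no peak in the other 6 libraries. The Rnf17 region in a coding exon (82487 bp, chr14:56484984-56485458) had 30 and 57 at 120 h and 35 in 48 h replicate 2. Both are low, although 120 h replicate 2 had the fewest peaks of all libraries.

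The number of peaks assigned to a gene was compared as the study counts accessibility. Tdrd7 had 7 and 6 peaks before RA (0 h), 2 and 2 by 18 h, 2 and 3 by 48 h, then 4 and 2 by 120 h. It had both 0 h counts above all later ones, which none of the other 8 did, a pattern found in 36.9% of 21490 genes. In 0 of the 9 did both 0 h counts lie below all later ones, as in 0.0698% of genes. The difference had the smallest p that 2 against 6 libraries allow (exact permutation test, two-sided, p = 0.0357, adjusted p = 0.103), and 0 of the 21490 genes passed after adjustment, although 34.7% had that unadjusted p. Tdrkh had 1 peak in every library. Tdrd1 ranged from 3 to 5 peaks, Tdrd9 from 2 to 6 and Tdrd12 from 1 to 2, and their 0 h and later counts overlapped. Summed over the 9 genes, there were 28 and 27 peaks before RA (0 h), 14 and 17 by 18 h, 15 and 21 by 48 h, then 26 and 18 by 120 h. As a share of all peaks of the library this was 3.88 and 3.91 per 10000 at 0 h and 6.57 and 7.30 at 120 h. On average, 0 h libraries had 9.0 peaks more than later libraries, and 0.167 more when the 24643 highest peaks of each library were used. A peak in both libraries of all 4 timepoints was found for 8 of the 9, all but Tdrd6, against 72.8% of the genes with both libraries at any timepoint.

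The partners of these proteins were read from a list of 18 piRNA and germ granule genes, 13 of whose starts had a peak in every library. Prmt5 and its cofactor Wdr77, whose complex methylates the arginines that Tudor domains bind, had assigned regions. None had a peak within 1000 bp of the deposited start, so neither gene had a start region to compare. The start of Nanos3 had heights of 191 and 107 at 0 h and no later peak. On centred heights at 120 h against 0 h, limma called 2 of the 13 lower (background 15.8%), Asz1 (-0.81, adjusted p = 0.0081) and Gtsf1 (-0.84, adjusted p = 0.0113), and 2 higher (background 23.0%), Mael (0.75, adjusted p = 0.0193) and Mov10l1 (0.60, adjusted p = 0.038). ASZ1 is a mitochondrial partner in piRNA biogenesis, GTSF1 a PIWI cofactor, MAEL a germ granule protein and MOV10L1 the helicase that feeds piRNA precursors. The median change of the 13 partner starts was -0.017, against 0.45 for the 7 starts of the group and 0.14 for all regions. The shares and the median of all regions include regions away from gene starts. On unscaled heights 7 of the 13 partners were lower at 120 h than at 0 h and 0 higher, against 3 and 0 of the 7, and 44.8% and 0.882% of all regions. After quantile normalization 1 partner was lower, Asz1, and 0 higher, with 10.2% and 8.74% of all regions. On centred heights the 2 lower and 2 higher partners became 0 and 0 without 120 h replicate 2, 2 and 0 without 0 h replicate 1, 1 and 2 without 0 h replicate 2, 2 and 3 without 120 h replicate 1, and 2 and 1 without any 1 library of 18 or 48 h.

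Of 20 genes for Tudor domain proteins used outside the germline, 15 had such a start. On centred heights at 120 h against 0 h, 0 were lower (background 15.8%) and 11 higher (background 23.0%), with a median of 0.78, among them Lbr (1.13, limma adjusted p = 0.0019), Smndc1 (1.00, limma adjusted p = 0.003) and Akap1 (0.94, limma adjusted p = 0.0053). LBR is an inner nuclear membrane protein, SMNDC1 a splicing factor and AKAP1 a mitochondrial anchor. On unscaled heights 1 of the 15, Kdm4a, was lower (background 44.8%) and 0 higher (background 0.882%). Of the 11, 7 had an unscaled log2 change above 0, such as Lbr (0.24), Smndc1 (0.11) and Akap1 (0.047), and 4 below 0, Tdrd3 (-0.25), Mtf2 (-0.11), Kdm4b (-0.26) and Arid4a (-0.31). After quantile normalization 2 of the 15 were higher, Lbr and Phf20l1, and 1 lower, Kdm4a, with 8.74% and 10.2% of all regions. Against 48 h on centred heights, limma called 7 of the 15 higher (background 9.47%), 1 of the 13 partners lower (background 7.45%), which was Gtsf1 (-0.75, adjusted p = 0.039), and 0 of the 7 starts of the group in either direction. After quantile normalization 0 of these were called against 48 h, with 0.386% of all regions lower and 0.444% higher. The 11 higher genes ranged from 5, without 120 h replicate 2, to 11 with 1 library left out, and the 7 became 0 without 48 h replicate 1, 48 h replicate 2 or 120 h replicate 2 and 4 without 120 h replicate 1. The call of Gtsf1 against 48 h was lost without any 1 library of 18 or 48 h and without 120 h replicate 2. The difference between the lists was not tested, and the backgrounds given for these starts include regions away from gene starts.

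The start of Tdrd9 had the widest range of centred timepoint means in the group, at 0.80 on the log2 scale. Measured by the Euclidean distance of centred log2 heights over the 8 libraries, its nearest starts among 8822 were the one shared by 2410022M11Rik and Zmym5 (0.322), that of Ankrd46 (0.35) and that of Dtd1 (0.375), whereas the median distance was 2.34. The Ankrd46 start had heights of 160 and 214 before RA (0 h), 56 and 68 by 18 h, 83 and 96 by 48 h, then 183 and 144 by 120 h, close to Tdrd9 in every library.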

How the data were processed

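Chromatin accessibility was measured by ATAC-seq in 8 libraries. The authors aligned reads to mm10 with BWA 0.7.12, removed duplicates and mitochondrial reads, reduced libraries to equal numbers of tags and called peaks per library with MACS2 2.1.0 without a control. The authors deposited signal, the tag coverage at each peak's summit and its mean over the peak, and assigned genes within 10 kb. Replicates were mice, named by timepoint and number.

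Peaks were merged at an overlap of at least 1 bp. The log2 of the highest summit value per region was fitted with limma 3.58.1 in R 4.3.3 (4 groups, no block, no pseudocount), with a threshold of 0.05, and the fit was tested on simulated data. Peak counts per gene were compared by exact permutation in Python 3.11.15 (numpy 2.4.6, pandas 2.3.3). Regions were named by rule: starts, regions with a peak in every library, those with both libraries of 1 timepoint and the highest of each gene. The members, gene lists and tests were chosen with earlier results of these data known. Alternatives were centring on the library median, quantile normalization, the mean signal, a replicate block, fewer libraries, an intensity trend, a minimum value of 50 and leaving out each library. Leaving out libraries on centred heights and quantile normalization of the gene lists were chosen after seeing the data. Browser tracks were not used.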

Additional observations from a re-analysis of the deposited data

How the results depend on the processing

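A peak in all 8 libraries was needed for a height to be tested, so the fits are silent on regions that lost a peak, and summit values near the lowest, 24, cannot show how far a missing peak fell. Groups of 2 libraries were too small to flag outlying samples. Replicate numbers were not taken to pair libraries, since the deviations of same-numbered libraries correlated between -0.22 and 0.25. With the replicate block on unscaled heights, 38 of the 39 log2 changes kept their call, 1 was lost, and the called regions numbered 13 (18 h against 0 h, lower), 2 (120 h against 48 h, higher) and 6 (120 h against 0 h, lower). The numbers of start regions and of genes with peaks at every timepoint were the same, 7 and 8, without any 1 library.

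The difference of 9.0 peaks between 0 h and later libraries ranged from 8.1 to 10.5 with 1 library left out and was 0.1667 with equal numbers of the highest peaks. On unscaled heights 13 regions were lower at 18 h than at 0 h. This became 0 after centring, 0 after quantile normalization and 0 with centring and the replicate block, and 8 to 13 with 1 library left out. The 3 regions higher at 120 h than at 48 h became 1 after centring, 0 after quantile normalization, 1 with centring and the block, 1 with only the compared timepoints, 5 with summit values of at least 50, and 0 to 7 with 1 library left out. The 6 regions lower at 120 h than at 0 h became 2 after centring, 2 after quantile normalization, 2 with centring and the block, and 2 to 8 with 1 library left out. The 0 regions higher at 120 h than at 0 h became 3 after centring and 3 with centring and the block, and stayed 0 after quantile normalization. On centred heights with 1 library left out, 0 to 1 regions were higher at 120 h than at 48 h and 0 to 3 higher than at 0 h, and 2 were lower than at 0 h each time. Centring and quantile normalization remove by construction the step shared by all regions; the cause of the other changes was not tested. After centring on the library median, with or without the replicate block, the sign of the log2 change turned at 18 h against 0 h for the Tdrd5 intron region (0.046), Tdrd7 start (0.031), Tdrd9 upstream region (0.19), Tdrd12 start (0.029), Tdrkh start (0.036) and Rnf17 start (0.23). It turned at 120 h against 48 h for the Tdrd1 intron region (-0.47), Tdrd1 downstream region (-0.48), Tdrd5 start (-0.39), Tdrd7 downstream region (-0.47), Tdrd9 upstream region (-0.15) and Rnf17 start (-0.049). It turned at 120 h against 0 h for the Tdrd1 upstream region (0.71), Tdrd5 intron region (0.36), Tdrd7 start (0.60), Tdrd9 upstream region (0.13), Tdrd9 start (0.63), Tdrkh start (0.46) and Rnf17 start (0.45). After quantile normalization it turned at 18 h against 0 h for the Tdrd5 intron region (0.046), Tdrd7 start (0.045), Tdrd9 upstream region (0.22), Tdrd12 start (0.00013) and Rnf17 start (0.23). It turned at 120 h against 48 h for the Tdrd1 intron region (-0.22), Tdrd1 downstream region (-0.27), Tdrd5 start (-0.15), Tdrd7 downstream region (-0.24), Tdrd9 upstream region (-0.18), Tdrd12 start (-0.092) and Rnf17 start (-0.39). It turned at 120 h against 0 h for the Tdrd1 upstream region (0.29), Tdrd5 intron region (0.11), Tdrd5 start (0.074), Tdrd7 start (0.39), Tdrd9 upstream region (0.14), Tdrd9 start (0.60) and Rnf17 start (0.17). With the mean signal it turned for the Tdrd7 downstream region at 120 h against 48 h (-0.050). With 1 library left out, the log2 change at 120 h against 48 h turned for the Tdrd1 intron region (-0.59 to 0.66, turned without 48 h replicate 1 and without 120 h replicate 1), Tdrd1 downstream region (-0.32 to 0.36, turned without 48 h replicate 1 and without 120 h replicate 1), Tdrd5 start (-0.074 to 0.30, turned without 120 h replicate 1) and Tdrd7 downstream region (-0.31 to 0.38, turned without 48 h replicate 1 and without 120 h replicate 1). With 1 library left out, the log2 change at 120 h against 0 h turned for the Tdrd1 upstream region (-0.48 to 0.12, turned without 120 h replicate 2), Tdrd7 start (-0.62 to 0.041, turned without 120 h replicate 2) and Tdrd9 start (-0.60 to 0.085, turned without 0 h replicate 2).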
